A study of Mus musculus with 45 samples.

Results

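The BCL2 family decides whether a cell keeps its mitochondria intact or commits to apoptosis. Its pro-survival proteins (BCL2, BCL-XL, MCL1 and A1) hold in check the effectors BAX and BAK, which otherwise permeabilize the mitochondrial outer membrane, and the BH3-only proteins (BIM, BID, PUMA and NOXA) engage the pro-survival proteins or the effectors to release that block. In myeloid cells, MCL1 and A1 are short-lived proteins whose abundance follows their synthesis closely, and BIM is the BH3-only protein best known for the death of cells deprived of growth factor.

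Transcripts of 10 genes of this family were followed here in bone marrow-derived macrophages: the pro-survival genes *Bcl2*, *Bcl2l1* (BCL-XL), *Mcl1* and *Bcl2a1b* (a copy of A1), the effectors *Bax* and *Bak1*, and the BH3-only genes *Bcl2l11* (BIM), *Bid*, *Bbc3* (PUMA) and *Pmaip1* (NOXA). The list was set by name and matched to the gene names of the deposited CPM table (reads of a gene scaled to the library's total), which held 10 of 10, of 29307 genes in the count table. All 10 passed the filter on low counts, as did 12905 genes in all. RNA sequencing covered 45 libraries from C57BL/6N mice aged 6 to 10 weeks, 5 in each of 9 groups: mice of the genotypes Faminp.254I, Faminp.254V or Faminp.284R, each with macrophages cultured for 6 days and then left unstimulated (M0), or polarized with IFN-γ and LPS (M1) or IL-4 (M2). The 3 genotypes carry different amino acid variants of FAMIN, a purine enzyme of macrophages, and Faminp.254I served as the reference. Each genotype and replicate number was taken to name a mouse (15 mice), with its M0, M1 and M2 cultures. Unless stated otherwise, levels are CPM scaled by TMM (trimmed mean of M-values), differences are log2 fold changes with their standard error (SE), and a gene was called changed at an adjusted p below 0.05 (edgeR quasi-likelihood test, Benjamini-Hochberg over all 12905 genes).

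Macrophage markers were abundant in every library (8 of 8 genes tested), but their summed level moved with polarization, at 27820 ± 4019 CPM in M0, 12070 ± 1025 in M1 and 11720 ± 1043 in M2 (SD, n = 15). *Lyz2* was the largest part of it, with means of 17570, 5782 and 5278 CPM. Not all 8 genes followed the sum. *Fcgr1* averaged 421 CPM in M0 and 1170 in M1, *Mertk* 198 in both, and *Itgam* 316 in M0 and 360 in M2. The summed levels of B cell, T and NK cell, mast cell and basophil, and erythroid markers each stayed at or below 0.860 CPM. Dendritic cell markers summed to 1.10 ± 0.342 CPM in M0, 8.89 ± 1.49 in M1 and 8.25 ± 2.82 in M2. A different single gene made up most of that sum in M1 and in M2. *Xcr1* averaged 0.0251 CPM in M0, 8.03 in M1 and 0.0174 in M2, and *Zbtb46* 0.643, 0.306 and 7.998 CPM. *Flt3* and *Siglech* stayed at means of 0.412 CPM or below. Fibroblast and stroma markers summed to between 6.38 and 90.0 CPM, with the highest mean in M0, at 41.6 ± 19.0. The part of these shifts in the changes of the members was not tested. *Cxcl9* reached 953 CPM or more in every M1 library and *Arg1* 709 CPM or more in every M2 library. *Mrc1*, another M2 marker, overlapped between M0 (685.5 to 942 CPM) and M2 (753 to 2204 CPM). The M1 libraries numbered 2 held 1165 to 1620 CPM of *Irf7*, against 1848 CPM or more in the other M1 libraries. They held 2.9 to 8.4 CPM of *Nos2*, against 17.1 CPM or more. A few libraries stood apart. The M0 library of the Faminp.254I mouse numbered 4 held 1592 CPM of the interferon-response gene *Irf7*, against 97.0 to 314 CPM in the other M0 libraries, and its M2 library held 290 CPM, against 20.7 to 89.8 CPM. The M1 library of the Faminp.254I mouse numbered 5 held 40.5 CPM of *Arg1* and 48.8 CPM of *Retnla*, against at most 0.885 and 0.242 CPM in the other M1 libraries. Counts of called members were therefore repeated without these 3 libraries, as were those of the pathway lists in M1 and M2.

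Levels were set per kb of exon, with all annotated exons of a gene joined, so that genes of different length could be compared (the plot of levels per kb). Which isoforms were expressed is not known, and the order depends on this length. *Mcl1* was the most abundant of the 10 transcripts in every polarization, at 251 ± 32.2 CPM per kb in M0, 293 ± 17.9 in M1 and 198 ± 13.6 in M2 (SD, n = 15 libraries), and its range did not overlap that of the next gene in any of them. *Bcl2* was the least abundant, at 0.993 ± 0.228, 1.31 ± 0.301 and 2.69 ± 0.530 CPM per kb, although in M2 its range overlapped that of *Pmaip1*, at 2.83 ± 0.579. In M0 the order per kb below *Mcl1* was *Bax*, *Bak1*, *Bcl2l11*, *Bcl2l1*, *Bid*, *Bbc3*, *Pmaip1*, *Bcl2a1b* and *Bcl2*. Of these neighbours, *Bak1* and *Bcl2l11*, and *Bcl2a1b* and *Bcl2*, did not overlap, while the others did. The place of *Bcl2a1b* is uncertain, since only 20.8% of the 50-base windows of its transcript are found in no other annotated gene. In M1 the order changed at the top, with *Bak1* at 120 ± 8.24 CPM per kb above *Bax* at 70.3 ± 3.76, and *Bid* at 36.0 ± 2.35 in the next place, none of them overlapping its neighbour. In M2 *Bax*, at 69.3 ± 7.40 CPM per kb, and *Bak1*, at 59.8 ± 4.67, overlapped.

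**Figure D1:**
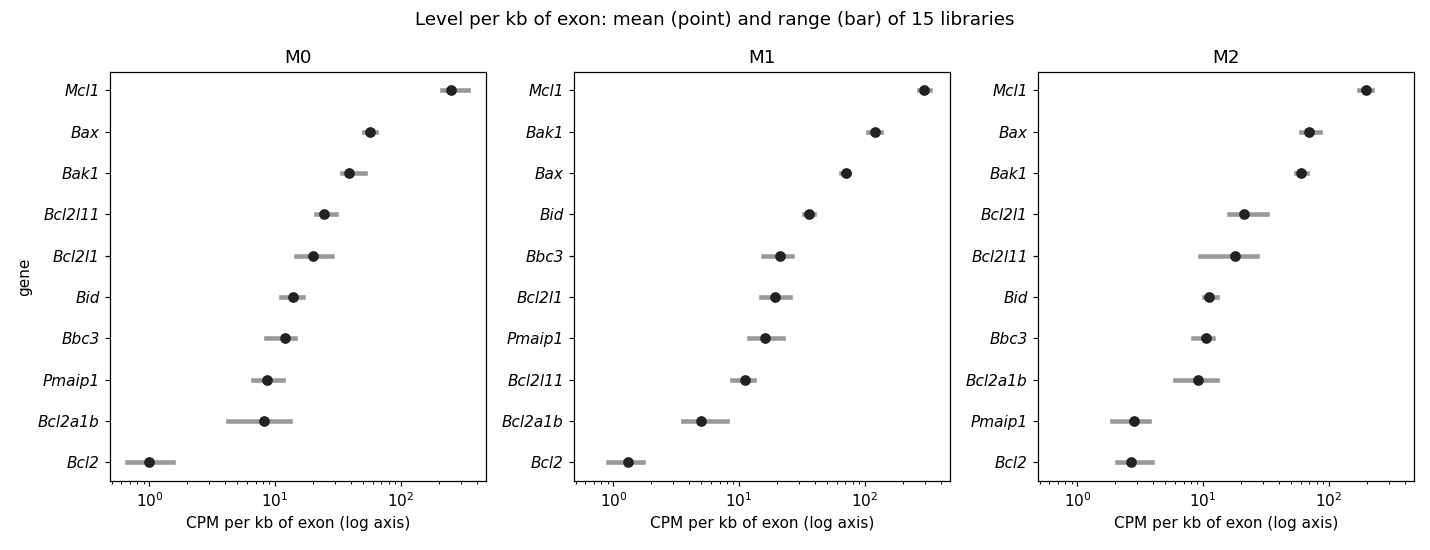
Level of each gene in CPM per kb of exon (log axis) in M0, M1 and M2, as the mean (point) and range (bar) of 15 libraries, ordered by mean. *Mcl1* leads each panel and *Bcl2* closes it, while *Bak1* and *Bid* move up the order in M1.

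Polarization to M1 raised the transcripts of both effectors, of *Bcl2* and *Mcl1*, and of 3 of the 4 BH3-only genes, and *Bcl2l11* and *Bcl2a1b* fell. Against M0, 9 of the 10 genes were called in M1, 7 higher and 2 lower, where 77.6% of all tested genes were called, 37.2% higher and 40.5% lower. The share called among the members is thus near that of all genes and is no result about the members. The median log2 fold change over the 10 genes was 0.36, against -0.03 over all genes. In M2, 8 of 10 were called against M0, 3 higher and 5 lower, where 76.8% of all genes were called, 37% higher and 39.8% lower, and the median over the members was -0.06, against -0.02 over all genes. Libraries are bulk RNA, so that fewer cells with a transcript and less of it per cell cannot be told apart. Ranges of the 15 M1 and 15 M0 libraries did not overlap for 6 of the 10 genes (28.6% of all genes), those of M2 and M0 for 3 (23.4%) and those of M1 and M2 for 6 (35.7%). Without the 3 libraries that stood apart, 9 genes were still called in M1 and 7 in M2, the latter because *Bbc3* was no longer called. The fall of *Bcl2a1b* in M1 was not called with the reads of its near-identical copies added (adjusted p = 0.326) or without the libraries numbered 1 and 2 (adjusted p = 0.0762).

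**Figure D2:**
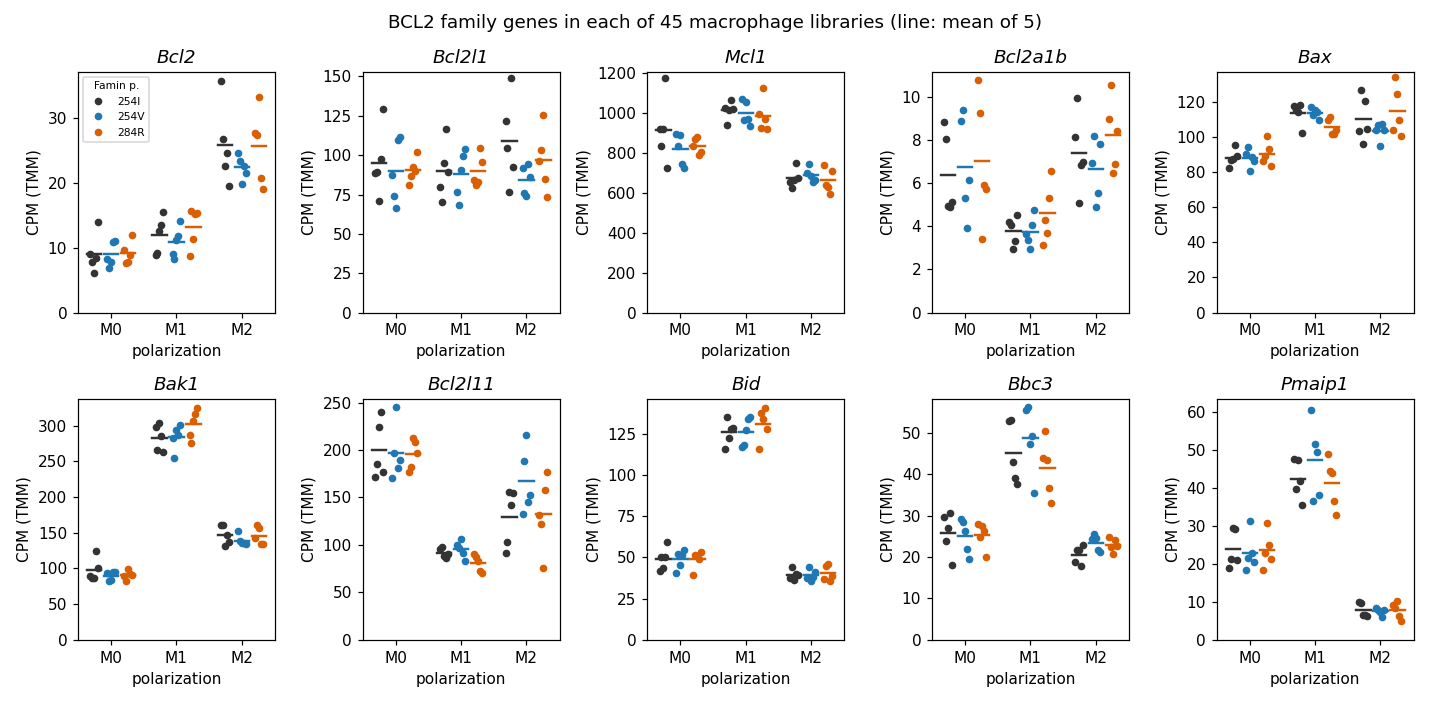
CPM (TMM-scaled) of each gene in the 45 libraries by polarization, with Famin genotypes in colour, points for libraries and lines for the mean of 5. *Bak1* and *Bid* sit above the M0 range in every M1 library and *Pmaip1* below it in every M2 library, whereas genotypes lie over each other.

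*Bak1* (chr17:27019810-27029009, minus strand, GRCm38), which encodes the effector resident on mitochondria, showed the largest change of the 10 genes in M1. It measured between 82.6 and 124 CPM in M0 with a median of 91.0, between 255 and 325 CPM in M1 with a median of 287, and between 132 and 161 CPM in M2 with a median of 138. All 3 ranges were separate, in the order M0, M2, M1. The log2 fold change was 1.64 ± 0.05 (SE) in M1, or 3.12-fold (adjusted p = 6.11e-30), and 0.63 ± 0.04 in M2, or 1.55-fold (adjusted p = 5.28e-16), with the same direction in 15 of 15 mice for each. The highest M0 value, 124 CPM, came from the library with raised *Irf7*, and the part of that response in the value was not tested. *Bax* (chr7:45461697-45466898, minus strand), the effector that moves from the cytosol to mitochondria, changed less. It rose from 80.3 to 100 CPM in M0, with a median of 88.3, to 101 to 118 CPM in M1, with a median of 112, a log2 fold change of 0.32 ± 0.04 (adjusted p = 1.5e-09), with ranges that did not overlap. In M2 it rose by a like amount, 0.30 ± 0.04 (adjusted p = 8.78e-09), with overlapping ranges, and M1 and M2 differed by 0.02 with a 95% confidence interval from -0.06 to 0.10. In annotation, *Bak1* exons share bases with *Ggnbp1* on the opposite strand and *Bax* exons with *Gm45808* on the same strand, so reads there could be assigned either way where counting ignored strand or took the latter as its own gene.

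**Figure D3:**
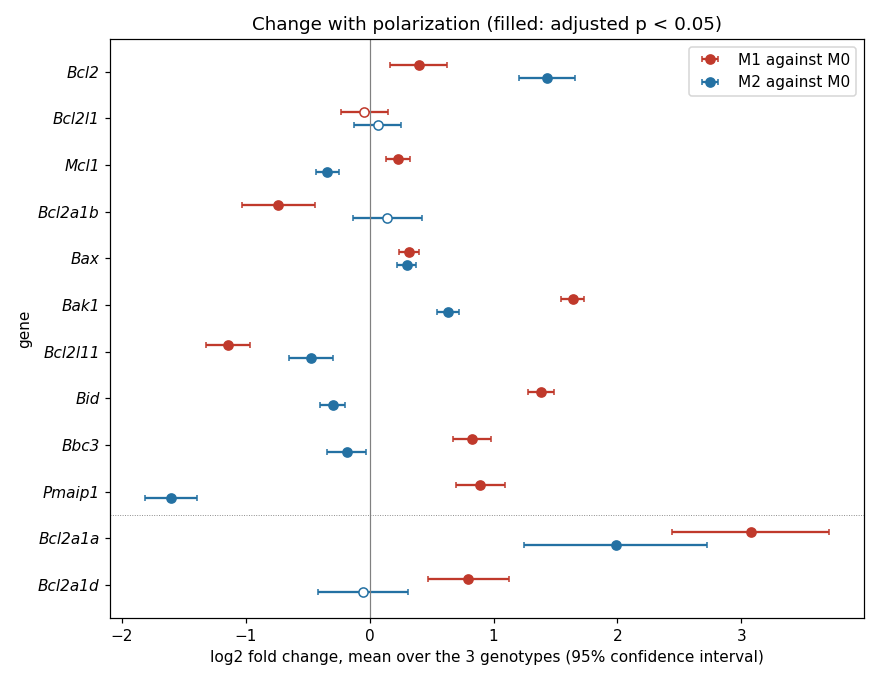
Log2 fold change against M0 (x axis) with 95% confidence intervals for the 10 genes and the 2 other Bcl2a1 copies below the dotted line, in M1 (red) and M2 (blue), where filled points have an adjusted p below 0.05. *Bid*, *Bbc3*, *Pmaip1* and *Mcl1* lie right of 0 in M1 and left of it in M2.

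Among the BH3-only genes, *Bid*, *Bbc3* and *Pmaip1* rose in M1 and were lower than M0 in M2. *Bid* (chr6:120891930-120916853, minus strand), whose protein is cleaved by caspase-8 and links death receptors to mitochondria, measured 39.2 to 59.6 CPM in M0 with a median of 50.4, 116 to 141 CPM in M1 with a median of 128, and 35.8 to 46.2 CPM in M2 with a median of 38.7. M1 libraries stood clear of both other groups, which overlapped each other. It rose by 1.38 ± 0.05 in M1 (2.61-fold, adjusted p = 1.57e-25) and fell by 0.30 on the log2 scale, with an SE of 0.05, in M2 (adjusted p = 1.97e-06), the latter in 15 of 15 mice. *Pmaip1*, which encodes NOXA, a selective partner of MCL1 and A1, gave the widest separation between M1 and M2. It measured 18.4 to 31.4 CPM in M0 with a median of 21.5, 32.8 to 60.7 CPM in M1 with a median of 44.0, and 5.11 to 10.2 CPM in M2 with a median of 7.84, so that no range overlapped another. The log2 fold changes were 0.89 ± 0.10 in M1 (adjusted p = 7.85e-11), -1.61 ± 0.10 in M2 (adjusted p = 3.22e-17) and 2.50 ± 0.10 for M1 against M2, or 5.65-fold (adjusted p = 6.79e-24). *Bbc3* (chr7:16308393-16318205, plus strand), the p53-responsive gene of PUMA, measured 17.97 to 30.6 CPM in M0, 33.0 to 56.2 CPM in M1 and 17.8 to 25.6 CPM in M2, with medians of 26.3, 43.8 and 22.5. Its rise in M1, 0.83 ± 0.08 (adjusted p = 9.26e-13), held in 15 of 15 mice. Its value in M2, -0.19 ± 0.08 (adjusted p = 0.0275), was lower in 12 of 15 mice and lost its call when any of 4 mice was left out, with an adjusted p of up to 0.109 without the Faminp.254I mouse numbered 4. Exons of *Bid* share 628 bases with *Bcl2l13* on the opposite strand.

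*Bcl2l11* (chr2:128126038-128162547, plus strand), the gene of BIM, moved against the other BH3-only genes in M1. It measured 170 to 245 CPM in M0 with a median of 189, and 70.2 to 106 CPM in M1 with a median of 90.1, with no overlap. The log2 fold change was -1.14 ± 0.09 (0.453-fold, adjusted p = 6.63e-15), and all 15 mice fell. In M2 it spread from 75.3 to 216 CPM with a median of 145, a log2 fold change of -0.47 ± 0.09 (adjusted p = 7.9e-06), again lower in 15 of 15 mice. The lowest M2 library, that of the Faminp.284R mouse numbered 3 at 75.3 CPM, lay below 3 of the 5 M1 libraries of its own genotype. M1 and M2 differed by -0.67 ± 0.09 (adjusted p = 7.91e-09).

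For the stretch before the start site, *Bak1* and *Bid*, the members with the largest rise in M1, are shown with the 150 bases upstream of the RefSeq start (GRCm38.p6; chr17:27028628-27028777 and chr6:120916825-120916974, both minus strand, written 5′ to 3′). The GENCODE genes reach further upstream than these starts. The *Bak1* stretch thus lies within its annotated gene, which runs to 27029009, and the *Bid* stretch overlaps its gene, which runs to 120916853. Capitals mark matches on either strand to GGGNNNNNCC, a loose form of the κB motif.
Bak1: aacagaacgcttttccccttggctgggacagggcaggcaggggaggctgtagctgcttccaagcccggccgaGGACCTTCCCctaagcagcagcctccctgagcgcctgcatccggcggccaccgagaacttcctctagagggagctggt
Bid: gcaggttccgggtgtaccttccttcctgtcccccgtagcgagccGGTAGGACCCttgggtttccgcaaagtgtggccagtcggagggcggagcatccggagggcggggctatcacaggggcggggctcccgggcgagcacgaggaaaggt
Each holds a match, as do 50.8% of 32851 RefSeq promoter windows of 300 bases. Neither window of 300 bases holds GAAANNGAAA, an interferon response motif found in 3.44% of windows. Of the 10 genes, 9 had an entry in that table. Their windows held no match to that motif, nor to TGACTCA (AP-1, 5.2% of windows), and the only match to TTCNNNNGAA, a STAT6-type motif found in 6.95%, lay at 1 of the 3 *Bcl2l1* starts.

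The pro-survival genes did not move together. *Mcl1* (chr3:95658788-95663176, plus strand) measured 723 to 1178 CPM in M0 with a median of 837, 923 to 1126 CPM in M1 with a median of 998, and 595 to 749 CPM in M2 with a median of 666. M1 and M2 libraries did not overlap, and M0 libraries overlapped both. It rose by 0.23 ± 0.05 in M1 (1.17-fold, adjusted p = 4.39e-05), in 14 of 15 mice, and the log2 fold change in M2 was -0.34 ± 0.05 (0.790-fold, adjusted p = 3.17e-08), lower in 15 of 15 mice. The exception in M1 was the Faminp.254I mouse numbered 4, whose M0 library gave the highest M0 value. *Bcl2* (chr1:106538178-106714274, minus strand) was higher in M2 than in either other polarization. It measured 6.13 to 14.0 CPM in M0 with a median of 8.41, 8.29 to 15.7 CPM in M1 with a median of 11.9, and 19.1 to 35.6 CPM in M2 with a median of 23.3, the M2 range lying clear of the others. The log2 fold changes were 1.43 ± 0.11 in M2 (2.70-fold, adjusted p = 1.54e-14) and 0.39 ± 0.11 in M1 (adjusted p = 0.00208), higher in 15 and 13 of 15 mice. Exons of *Bcl2* share 558 bases with *D630008O14Rik* on the opposite strand. *Bcl2l1* (chr2:152780668-152831728, minus strand) was not called in any polarization comparison. It ranged from 66.6 to 129 CPM in M0, 68.6 to 117 CPM in M1 and 73.7 to 149 CPM in M2, with log2 fold changes of -0.04 (95% confidence interval -0.23 to 0.15) in M1 and 0.07 (-0.12 to 0.25) in M2.

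*Bcl2a1b* (chr9:89199209-89207827, plus strand) is a copy of the A1 gene that mice carry several times on chromosome 9, and its reads are hard to place. Only 20.8% of the 50-base windows of its transcript, the read length used, occur in no other annotated gene. Of 768 windows, 442 are shared with *Bcl2a1d*, 353 with *Gm29094* and 316 with *Bcl2a1a*. Exons of *Gm29094*, on the same strand, share 401 bases with those of *Bcl2a1b*. Across the 516 coding bases without the stop codon, *Bcl2a1b* differs from *Bcl2a1a* at 11 positions and from *Bcl2a1d* at 6, and 12 positions vary among the 3 copies. The first 100 coding bases, which hold 7 of the 12, are given from GENCODE transcripts (GRCm38; chr9:88957051-88957150 plus strand, chr9:89199360-89199459 plus strand and chr9:88731620-88731719 minus strand), with capitals at the positions that vary.
Bcl2a1a: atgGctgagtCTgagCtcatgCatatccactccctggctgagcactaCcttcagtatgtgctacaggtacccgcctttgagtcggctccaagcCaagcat
Bcl2a1b: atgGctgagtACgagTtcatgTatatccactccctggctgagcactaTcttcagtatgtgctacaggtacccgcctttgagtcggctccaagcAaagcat
Bcl2a1d: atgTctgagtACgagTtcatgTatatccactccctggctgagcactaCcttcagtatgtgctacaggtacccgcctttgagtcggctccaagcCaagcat
The longest stretch without a difference between *Bcl2a1b* and either copy runs over 217 bases, several read lengths.

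*Bcl2a1b* measured 3.42 to 10.8 CPM in M0 with a median of 5.93, 2.93 to 6.57 CPM in M1 with a median of 4.06, and 4.87 to 10.6 CPM in M2 with a median of 6.96. All 3 ranges overlapped. The log2 fold change in M1 was -0.74 ± 0.15 (adjusted p = 1.98e-05), lower in 12 of 15 mice, and in M2 0.14 ± 0.14 (adjusted p = 0.351). The other copies had the opposite sign in M1. *Bcl2a1a* rose by 3.07 ± 0.31 (adjusted p = 1.41e-11) from 0.178 ± 0.110 CPM in M0 to 1.50 ± 0.677 in M1 (SD, n = 15), and *Bcl2a1d* by 0.79 ± 0.16 (adjusted p = 2.96e-05) from 0.811 ± 0.238 to 1.43 ± 0.426 CPM. In M2 *Bcl2a1a* rose by 1.99 ± 0.37 (adjusted p = 6.62e-06), to 0.715 ± 0.513 CPM, and *Bcl2a1d* was at -0.05 ± 0.18 (adjusted p = 0.792). *Bcl2a1b* held 87.2% of the counts of the 3 copies in M0, 83.2% in M2 and 58.1% in M1. With the 3 copies summed, the level was 7.69 ± 2.44 CPM in M0 and 6.99 ± 1.83 in M1, and the log2 fold change of -0.15 ± 0.14 was not called (adjusted p = 0.326). This sum does not include *Gm29094*.

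The M0 level of *Bcl2a1b* also followed the replicate number (the plot by replicate number). In M0, libraries numbered 1 and 2 averaged 9.48 and 8.88 CPM over the 3 genotypes, and those numbered 3, 4 and 5 averaged 4.57, 4.91 and 5.66 CPM, with no overlap between the former and the latter. The summed level of 8 neutrophil and granulocyte precursor genes was also highest in M0 under the numbers 1 and 2, with means of 170 and 291 CPM against 40.4 to 85.9 CPM under the others, and its M0 range over all 15 libraries was 32.5 to 332 CPM, against 44.6 to 149 CPM in M1 and 18.03 to 78.1 CPM in M2. None of the 8 genes was at 0 throughout. Their part in the *Bcl2a1b* level was not tested. Other members also had a replicate number that lay clear of the rest in M0. *Pmaip1* was highest under number 3 (29.5 to 31.4 CPM) and *Bcl2* under number 5 (11.03 to 14 CPM). *Bid* was lowest under number 1 (39.2 to 41.8 CPM) and highest under number 5 (53.6 to 59.6 CPM), and *Bbc3* was lowest under number 5 (17.97 to 19.9 CPM). *Pmaip1* was also lowest under number 1 (18.4 to 19.02 CPM). So was *Bcl2l11*, at 170.2 to 176.7 CPM against 177.2 CPM or more under the other numbers. Without the libraries numbered 1 and 2, the log2 fold change of *Bcl2a1b* was -0.29 ± 0.14 in M1 (adjusted p = 0.0762), no longer called, and 0.36 ± 0.14 in M2 (adjusted p = 0.0261), which was called.

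**Figure D4:**
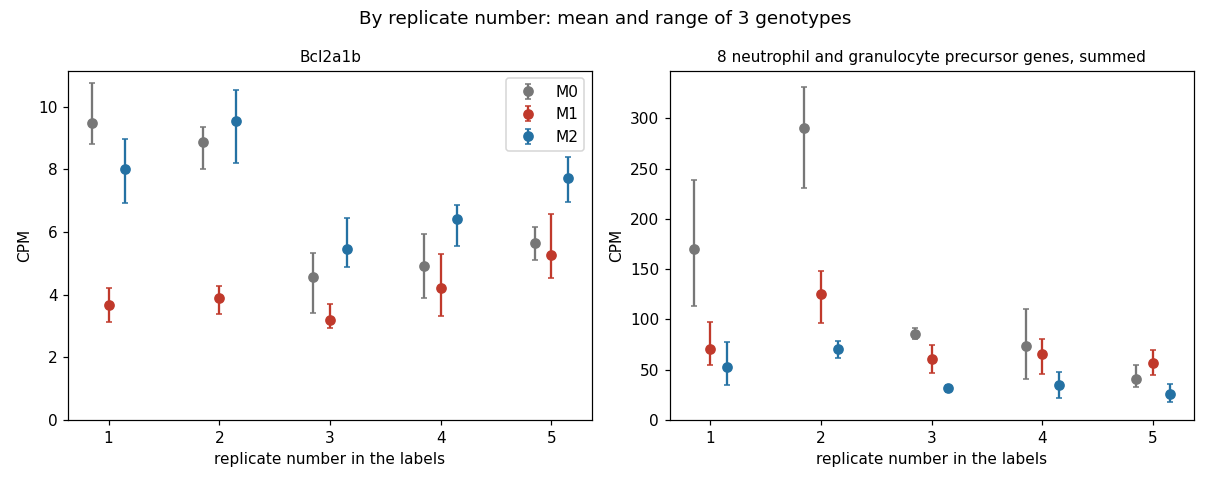
*Bcl2a1b* (left) and the summed level of 8 neutrophil and granulocyte precursor genes (right), in CPM, by the replicate number of the labels, as the mean and range of the 3 genotypes in M0, M1 and M2. In M0 both are highest under the numbers 1 and 2.

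For M1 against M2, 8 of the 10 genes were called, 5 higher and 3 lower in M1, where 79.1% of all genes were called, 39% higher and 40.1% lower, and 8 were called without the 3 libraries that stood apart. *Pmaip1* (2.50), *Bid* (1.68 ± 0.05, adjusted p = 1.69e-28), *Bbc3* (1.01 ± 0.08, adjusted p = 2.14e-15), *Bak1* (1.01 ± 0.05, adjusted p = 4.11e-23) and *Mcl1* (0.57 ± 0.05, adjusted p = 3.81e-14) were higher in M1. *Bcl2* (-1.04 ± 0.11, adjusted p = 5.22e-11), *Bcl2a1b* (-0.88 ± 0.15, adjusted p = 9.28e-07) and *Bcl2l11* were lower. The near-identical copies of *Bcl2a1b* were called the other way, *Bcl2a1a* at 1.09 ± 0.25 (adjusted p = 0.000124) and *Bcl2a1d* at 0.85 ± 0.17 (adjusted p = 1.62e-05). Across the 45 libraries, the member most like each other member on log2 CPM was *Bid* for *Bak1* (r = 0.833) and for *Bbc3* (0.852), *Pmaip1* for *Mcl1* (0.887), and the least alike were *Bak1* and *Bcl2l11* (-0.895). Among 10292 other genes with a mean log2 CPM of at least 1, the most like *Bak1* was *Naa25* (r = 0.989), the most like *Bid* was *Fam49b* (0.988), the most like *Pmaip1* was *Klhl6* (0.977), the most like *Bcl2* was *Abce1* (0.966), the most like *Bbc3* was *Rnf145* (0.948), the most like *Mcl1* was *Ifi207* (0.947) and the most like *Bcl2l11* was *Slco2b1* (0.935). For *Bax*, *Bcl2a1b* and *Bcl2l1* the values were lower, at 0.895 with *Tmed9*, 0.887 with *Akirin1* and 0.786 with *Slc39a14*. These correlations are descriptions over libraries that share 3 polarizations and 15 mice.

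No member was called between the Famin genotypes (the plot of genotype differences). Averaged over M0, M1 and M2, Faminp.284R differed from Faminp.254I by log2 fold changes between -0.08 (*Bcl2l1*) and 0.19 (*Bcl2a1b*), where 0.0232% of all genes were called, and Faminp.254V from Faminp.254I by -0.16 (*Bcl2l1*) to 0.13 (*Bcl2l11*), where 0.0155% were called. Faminp.284R and Faminp.254V differed by -0.19 (*Bcl2l11*) to 0.21 (*Bcl2a1b*), where 0% were called. In edgeR, 0 of the 10 genes were called in any of these 3 comparisons, 1 had an unadjusted p below 0.05, and DESeq2 and limma-voom also called 0, as did edgeR without the 3 libraries that stood apart. The 95% confidence intervals of the 30 values reached from -0.37 to 0.51 and were narrowest for *Bax*, from -0.08 to 0.08 between Faminp.284R and Faminp.254I, and widest for *Bcl2a1b*. For *Bak1* and *Mcl1*, the same intervals ran from -0.10 to 0.08 and from -0.16 to 0.03. These intervals treat the 3 cultures of a mouse as independent. With the counts of each mouse summed (5 mice per genotype), they reached from -0.43 to 0.62 over the 30 values, and those of *Bax*, *Bak1* and *Mcl1* between Faminp.284R and Faminp.254I ran from -0.11 to 0.09, from -0.14 to 0.07 and from -0.20 to 0.06, with 0 genes called and 2 at an unadjusted p below 0.05. In the fit over all libraries, the difference with an unadjusted p below 0.05 was that of *Bcl2l11* between Faminp.284R and Faminp.254V, -0.19 ± 0.09 (unadjusted p = 0.0347, adjusted p = 0.95). Summed per mouse, it was -0.13, with an interval from -0.32 to 0.05. The 2 low unadjusted p-values of the per-mouse fit were both of *Bcl2*, and neither was called. It was at -0.18 between Faminp.254V and Faminp.254I (interval -0.34 to -0.02, unadjusted p = 0.0328). Between Faminp.284R and Faminp.254V it was at 0.20 (0.03 to 0.36, unadjusted p = 0.0213).

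**Figure D5:**
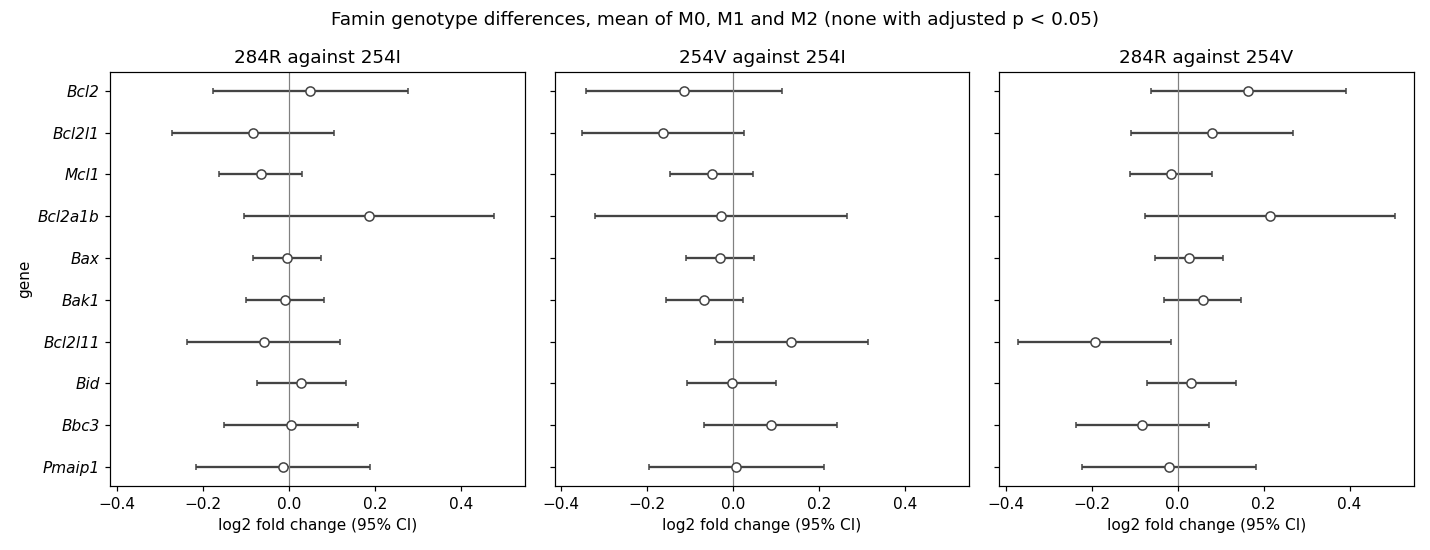
Log2 fold change between Famin genotypes, averaged over M0, M1 and M2, with 95% confidence intervals for the 10 genes. No value has an adjusted p below 0.05, and intervals are narrow for *Bax*, *Bak1*, *Mcl1* and *Bid* and wide for *Bcl2a1b* and *Bcl2*.

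Within each polarization, 0 of the 10 genes were called between Faminp.284R or Faminp.254V and Faminp.254I in edgeR, with or without the 3 libraries that stood apart, with 2 at an unadjusted p below 0.05, and DESeq2 and limma-voom called 0. Of all genes, 0.271% were called for Faminp.284R in M1, 0.00775% in M2 and 0% in M0, and 0% for Faminp.254V in any of the 3. Both values with a low unadjusted p fell in M2 between Faminp.254V and Faminp.254I. *Bcl2l11* measured 132.5, 189, 216, 145 and 152 CPM in Faminp.254V and 91.5, 103, 156, 142 and 155 CPM in Faminp.254I, a log2 fold change of 0.37 ± 0.15 (unadjusted p = 0.0212, adjusted p = 0.998). *Bcl2l1* measured 91.7, 75.7, 73.8, 94.3 and 86.4 CPM in Faminp.254V and 121, 104, 76.9, 149 and 92.3 CPM in Faminp.254I, a log2 fold change of -0.37 ± 0.16 (unadjusted p = 0.0282, adjusted p = 0.998). The 2 groups overlapped for each gene. By replicate number, *Bcl2l1* was lower in Faminp.254V under 5 of 5 numbers and *Bcl2l11* higher under 4 of 5, and with the number as a replicate block neither was called (*Bcl2l1* -0.36 ± 0.15, *Bcl2l11* 0.37 ± 0.15, adjusted p = 0.85 for each). *Mcl1* in M0 was 916 ± 166 CPM in Faminp.254I, 818 ± 80.3 in Faminp.254V and 836 ± 39.5 in Faminp.284R (SD, n = 5), the largest SD belonging to the group that holds the library with raised *Irf7*.

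Whether the response to polarization depended on genotype was tested as an interaction. In edgeR, 0 of the 10 genes were called in 4 interaction comparisons, 0 had an unadjusted p below 0.05, and 0% of all genes were called in each, with 0 members also called by DESeq2 and limma-voom, and by edgeR without the 3 libraries that stood apart. The 40 values ranged from -0.28 to 0.39, with SEs of up to 0.36. The SEs and intervals of this paragraph treat the cultures of a mouse as independent. With the mouse as a block, no member was called either. *Bak1* in M1 rose by 1.54 ± 0.08 in Faminp.254I, 1.66 ± 0.08 in Faminp.254V and 1.73 ± 0.08 in Faminp.284R, and *Bcl2l11* in M1 changed by -1.12 ± 0.15, -1.04 ± 0.15 and -1.27 ± 0.16. The value of *Bcl2l11* in M2 was -0.63 ± 0.15 in Faminp.254I, -0.24 ± 0.15 in Faminp.254V and -0.56 ± 0.15 in Faminp.284R, and the difference between Faminp.254V and Faminp.254I, 0.39 ± 0.22, had a 95% confidence interval from -0.05 to 0.83 (unadjusted p = 0.0779, adjusted p = 1).

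Other genes of the pathway are set beside the shares of all genes called, 37.2% higher and 40.5% lower in M1 and 37% higher and 39.8% lower in M2. The lists were not tested as sets. Without the 3 libraries that stood apart, their counts differed in 2 places, with 2 transcription factor genes lower in M1 in place of 3 and 7 death receptor genes lower in M2 in place of 6. Of 12 further BCL2 family genes tested, 7 rose and 4 fell in M1, and 3 rose and 4 fell in M2 (*Bcl2l10*, *Hrk* and *Bcl2l15* did not pass the filter). The 12 include the copies *Bcl2a1a*, among the rises in M1 and M2, and *Bcl2a1d*, among those in M1, whose reads are hard to place. *Bcl2l14* (BCL-G) had 717 to 2148 reads in every M1 library, at 46.3 ± 13.7 CPM scaled to total counts (SD, n = 15), and at most 3 reads in any M0 or M2 library. *Bmf*, a BH3-only gene, fell by 2.43 on the log2 scale in M2 (SE 0.13, adjusted p = 7.36e-20), and *Bik*, another, by 2.46 (SE 0.37, adjusted p = 4.09e-08) from at most 24 reads in any M0 library to at most 3. *Bik* in M1 was at -1.26 ± 0.31 (adjusted p = 0.000232). *Bok*, an effector-like gene, rose by 1.45 ± 0.19 in M2 (adjusted p = 7.1e-10) and in M1 had a log2 fold change of -3.28 ± 0.39 (adjusted p = 4.1e-11), with 0 to 3 reads in each M1 library.

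Among apoptosome and caspase genes, 9 of 13 rose and 1 fell in M1, and 7 rose and 3 fell in M2. Of all genes, 37.2% rose and 40.5% fell in M1, and 37% rose and 39.8% fell in M2. *Casp9*, the initiator activated by the apoptosome, had a log2 fold change of -0.33 ± 0.04 in M1 (adjusted p = 6.21e-10). *Cycs*, the cytochrome c gene with many processed copies in the genome and so uncertain in counts, rose by 1.83 ± 0.09 in M1 and 0.90 ± 0.09 in M2. In M2 *Casp6*, an executioner caspase, rose by 1.72 ± 0.06 (adjusted p = 7.33e-25), while *Casp2* and *Apaf1*, the scaffold of the apoptosome, were at -0.69 ± 0.07 and -0.32 ± 0.05 (adjusted p = 5.21e-12 and 1.39e-06). Of 8 inhibitor of apoptosis and caspase inhibitor genes, 4 rose and 3 fell in M1, and 0 rose and 7 fell in M2. *Birc2* and *Birc3*, which encode cIAP1 and cIAP2, rose by 0.85 ± 0.05 and 0.47 ± 0.09 in M1 (adjusted p = 5.78e-20 and 2.08e-05), with *Xiap* at -0.23 ± 0.03 and *Birc5*, a gene of dividing cells, at -0.66 ± 0.18 (adjusted p = 8.51e-08 and 0.000923). In M2 *Birc3* was at -0.80 ± 0.09 and *Birc5* at -1.43 ± 0.18 (adjusted p = 6.6e-10 and 5.87e-09).

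In the death receptor pathway, 10 of 13 genes rose and 2 fell in M1, and 4 rose and 6 fell in M2. The shares over all genes were 37.2% higher and 40.5% lower in M1, and 37% higher and 39.8% lower in M2. *Tnfsf10*, the ligand TRAIL, rose by 4.13 ± 0.19 in M1 and in M2 was at -1.77 ± 0.22 (adjusted p = 5.03e-22 and 1.89e-09). *Mlkl*, the effector of necroptosis, rose by 2.32 ± 0.06 in M1 (adjusted p = 4.2e-30), with *Tnfrsf1b*, the second TNF receptor, at -1.12 ± 0.07 and *Fadd*, the receptor adaptor, at -0.08 ± 0.03 (adjusted p = 1.87e-17 and 0.0188). In M2 *Tnfrsf10b*, the TRAIL receptor, and *Ripk3* rose by 1.14 ± 0.11 and 0.81 ± 0.06 (adjusted p = 6.9e-12 and 9.4e-16), and *Fas* was at -0.93 ± 0.13 (adjusted p = 3.9e-08). Among 5 genes for turnover of MCL1 and BH3 proteins, 2 rose and 2 fell in M1, and 2 rose and 1 fell in M2. *Trim17*, a ubiquitin ligase for MCL1, rose by 1.21 ± 0.08 in M1 and in M2 was at -0.59 ± 0.08 (adjusted p = 1.08e-17 and 1.35e-08), the same directions as *Mcl1*. *Usp9x*, which removes ubiquitin from MCL1, and *Huwe1*, a ligase for it, were at -0.43 ± 0.08 and -0.20 ± 0.08 in M1 (adjusted p = 7.98e-06 and 0.0282), and *Fbxw7*, another ligase, rose by 0.24 ± 0.05 (adjusted p = 2.17e-05). In M2 *Btrc* and *Fbxw7* rose by 0.16 ± 0.04 and 0.13 ± 0.05 (adjusted p = 0.000921 and 0.0145).

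A list of 7 genes held transcription factors known to act on BH3-only genes and *Mdm2*, a regulator of p53. Of these 7, 4 rose and 3 fell in M1, and 1 rose and 3 fell in M2. Over all genes, 37.2% rose and 40.5% fell in M1, and 37% rose and 39.8% fell in M2. *Foxo3* and *Foxo1*, activators of *Bcl2l11*, were at -0.95 ± 0.06 and -0.78 ± 0.06 in M1 (adjusted p = 3.84e-17 and 3.3e-15), and *Foxo3* at -0.46 ± 0.06 in M2 (adjusted p = 2.04e-08). *Ddit3* (CHOP) and *Atf4*, factors of the stress response, rose by 1.23 ± 0.11 and 0.51 ± 0.08 in M1 (adjusted p = 1.36e-13 and 4.3e-07), and *Atf4* by 0.41 ± 0.08 in M2 (adjusted p = 1.8e-05), with *E2f1* at -0.27 ± 0.05 (adjusted p = 2.97e-05).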

How the data were processed

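RNA was sequenced from 45 libraries (stranded mRNA libraries, single-end reads of 50 bases). The authors deposited counts of reads per Ensembl gene, not normalized, and a CPM table of 11900 genes, which per the file is scaled to its own total. The submitters' processing notes name FastQC, Trim Galore, HISAT2, limma and mm10, whereas the series description names Cutadapt and STAR, and the counting tool, its annotation and its use of strand are not given in the sources used here. Whole reads recovered from the CPM values (within 0.05 reads) equalled the counts for 100% of values.

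Samples were grouped by their labels. Calls came from edgeR 4.0.16 under R 4.3.3 (filterByExpr, TMM, robust glmQLFit on 9 groups), and limma 3.58.1 and DESeq2 1.42.0 served as alternatives. The deposited counts summed to between 17239009 and 43740283 per library (median 27553642). Low levels are thus the least precise, and the model counts that error in. Polarizations were compared as means over genotypes, genotypes as means over M0, M1 and M2 and within each, and the polarization response between genotypes as interactions. The members and lists were chosen with earlier results of these data known. All members are named in every comparison, and from each other list the counts and the 2 called genes with the largest change in each direction in M1 and M2. A gene and a motif that these rules cover are not reported here. Symbols, positions and exon lengths came from GENCODE M21 (GRCm38, the assembly mm10), which matched 29081 of 29307 identifiers.

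Cultures of a mouse were paired by genotype and number. Deviations from the group means correlated above 0.1 for 37 of 45 pairs of cultures of a mouse. Nothing in the labels says that mice of a group came from separate experiments, and p-values measure the spread between these samples.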

Additional observations from a re-analysis of the deposited data

Results flagged for a closer look

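In 2 of the 90 sets of 5 libraries, a member had a sample far from the others by Dixon's criterion at 95%, which chance alone meets in about 1 of 20 sets. *Bax* in M1 of the Faminp.254I mouse numbered 5 was 102 CPM, against 114 to 118 CPM in the other 4 libraries of its group (ratio of gap to range 0.761), and this is the M1 library that carries *Arg1* and *Retnla*. *Bak1* in M2 of the Faminp.254V mouse numbered 1 was 153 CPM, against 134 to 138 CPM in its group (0.762). The part of either library's other features in these values was not tested.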

How the results depend on the processing

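Counts of called members per comparison were recomputed under normalization by DESeq2 size factors, the DESeq2 Wald test, limma-voom with and without the mouse as a random block, other low-count filters, only the libraries compared, whole reads from the CPM table, summed Bcl2a1 copies, counts summed per mouse and without each mouse in turn. They stayed at 8 or 9 of 10 in M1, 7 or 8 in M2 and 8 for M1 against M2, and at 0 in every genotype and interaction comparison. With the replicate block (the mouse, or the number between genotypes) they were 9, 8, 8 and 0, and it changed no call of a member. Across genotypes, deviations of libraries with the same number correlated above 0.1 for 15 of 15 pairs in M0, 15 of 15 in M1 and 13 of 15 in M2, and the labels give no shared litter, batch or day. The sign of *Bcl2l1*, never called, was not stable. In M1 against M0 it was 0.0076 without the Faminp.254I mouse numbered 5 and ranged from -0.0783 to 0.0076 without each mouse. Without the libraries numbered 1 and 2, an alternative chosen after seeing the data as was leaving out the 3 libraries that stood apart, it was 0.0072 in M1 against M0, -0.0418 in M2 against M0 and 0.049 in M1 against M2. Limma-voom gave *Bbc3* in M2 -0.17 (adjusted p = 0.0562), and the causes of these shifts were not tested. Of all genes, 35 were called between Faminp.284R and Faminp.254I in M1, against 78 with the replicate block, 64 by DESeq2, 11 by limma-voom and 1 with only the libraries compared. Depth limits genes with few reads, such as *Bok* and *Bik*, and the reads of the Bcl2a1 copies cannot be placed with certainty.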
